A study of Mus musculus with 16 samples.

Results

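The PGC-1 coactivators and the regulators of mitochondrial biogenesis that work with them were followed in the quadriceps muscle of aged mice. The set was fixed as 10 genes, namely Ppargc1a, Ppargc1b, Esrra, Esrrg, Nrf1, Gabpa, Tfam, Tfb1m, Tfb2m and Polrmt, and every array probe that the platform annotation gives to 1 of them was taken, whatever its signal. All 10 genes were represented, by 13 of the 25697 probes on the array (3 for Gabpa, 2 for Tfam and 1 for each other gene), among 16593 named genes in all. The mice were male C57BL/6 animals, aged 22 months at the start and 24 months at harvest, after 2 months of diet. Of 16 mice, 6 ate standard chow with 0.27% ursolic acid, 5 ate standard chow with 0.05% tomatidine and 5 ate standard chow alone (control). Ursolic acid is a pentacyclic triterpenoid and tomatidine a steroidal alkaloid, and because they were given at different doses, a difference between them is not one at matched dose. Each mouse gave 1 single-colour BeadChip array.

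PGC-1α and PGC-1β, the products of Ppargc1a and Ppargc1b, bind no DNA of their own and act by docking on transcription factors, chiefly the estrogen-related receptors and the nuclear respiratory factors. These factors raise the transcription of nuclear genes for the respiratory chain, for fatty acid oxidation and for TFAM, TFB2M and the mitochondrial RNA polymerase, which in turn copy and transcribe mitochondrial DNA. In skeletal muscle the circuit is known for its response to endurance exercise and for supporting oxidative fibres.

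Values are the deposited log2 signals, in which 1 unit is a doubling of signal. The 16 arrays had medians of 8.02 to 8.03, and 76.8% of probes averaged under 8.5, close to the lowest signals of 7.87 to 7.90. A probe below 8.5 is called dim here, and its log2 differences may be compressed. Acta1 and Ckm, which define skeletal muscle, were bright in every mouse, at 15.00 to 15.24 and 14.99 to 15.24. On the principal component with the most variance (25.7%), tomatidine mice 4 and 3 lay at 14.56 and 7.11, against 5.84 for the highest control mouse. The lists of slow-fibre and adipocyte markers also differed between mice and are given beside the results they move with. In whole muscle, fewer cells of a type and less RNA per cell cannot be told apart.

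Between either diet and control, no probe of the 10 genes passed the threshold, a limma p of 0.025 or less before adjustment. With ursolic acid the count was 0 of 13 probes, where 5.30% of all probes passed, and with tomatidine it was 0 of 13, where 5.37% of all probes passed. Ursolic acid against tomatidine gave 1 of 13, with Ppargc1a lower under ursolic acid, where 2.94% of all probes passed. After Benjamini-Hochberg adjustment over all probes at 0.1, none of the 13 passed in any comparison, and the shares of all probes that did were 0.00778% with ursolic acid, 0.0973% with tomatidine, each set against control, and 0.0117% between the diets. The median log2 difference of the 13 probes was 0.01 for ursolic acid against control and 0.02 for tomatidine against control. Exact 2-sided permutation tests, given beside single genes, were run for the 13 probes in 3 comparisons. They were also run for Ckmt2, Fndc5, Tefm, Mapk12, Ucp3, Idh3b and Pdk4 in the same comparisons. Their p-values carry no adjustment. The comparisons with control share the same 5 control mice, so they are not independent of each other.

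**Figure D1:**
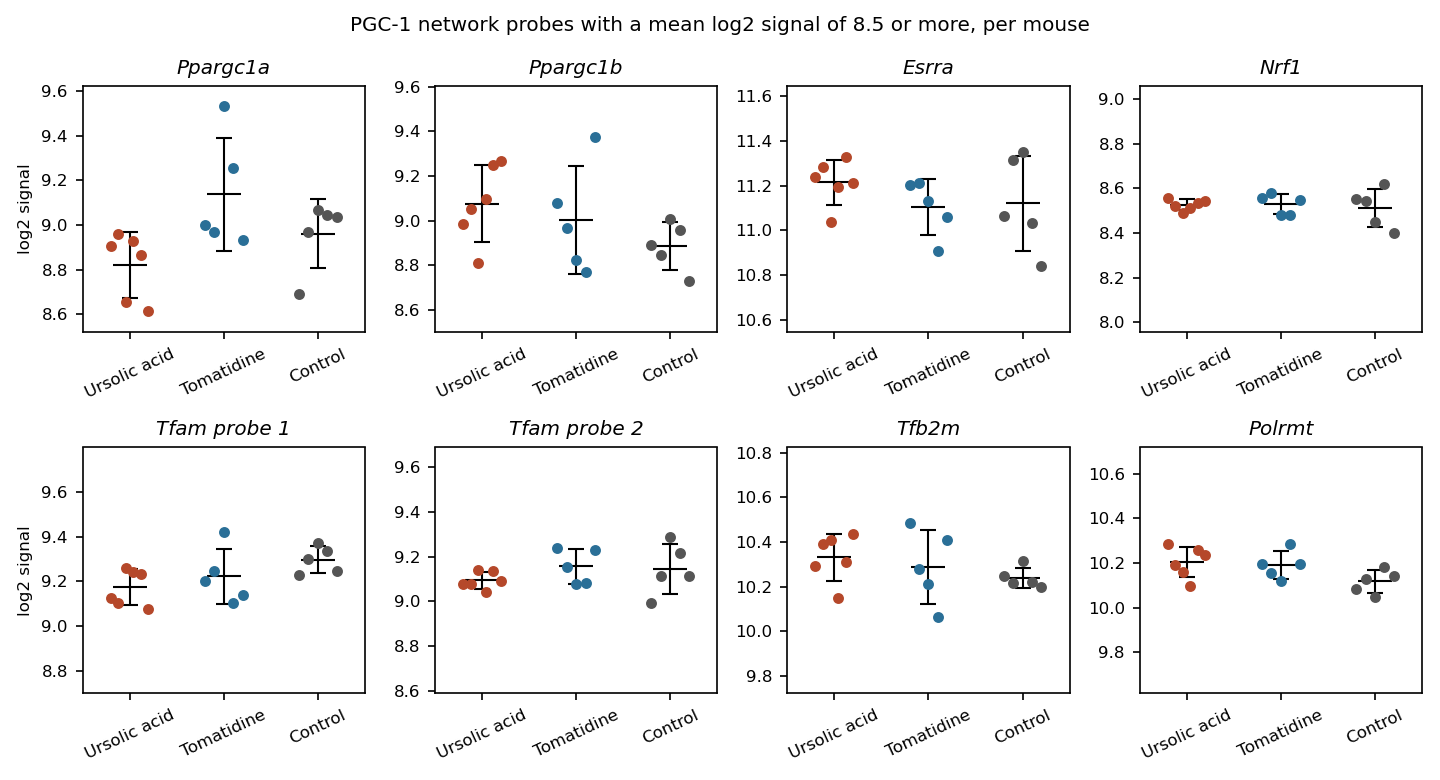
log2 signal (vertical axes, each spanning 1.1 units) of the 8 probes that averaged 8.5 or more, 1 point per mouse, for ursolic acid (6 mice), tomatidine (5 mice) and control (5 mice), with mean and SD as bars. Tomatidine mice 3 and 4 hold the highest Ppargc1a signals, 9.53 and 9.25, and the diet groups overlap in every panel.

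Ppargc1a, the coactivator most closely tied to exercise and fasting, was the 1 member of 13 probes to pass between the diets, in a comparison where 2.94% of all probes did, and it did not pass after adjustment. Its signal in ursolic acid-fed mice had a lowest value of 8.61, a median of 8.89 and a highest value of 8.96. In tomatidine-fed mice 1 to 5 it was 9.00, 8.97, 9.53, 9.25 and 8.93, and in control mice 1 to 5 it was 8.69, 8.97, 9.06, 9.04 and 9.03. Under ursolic acid 5 of 6 mice lay below every tomatidine mouse, tomatidine mice 3 and 4 lay above every other mouse, and control mouse 1 lay below the other controls. The difference of ursolic acid from tomatidine was -0.32 (SE 0.11, 95% interval -0.54 to -0.09, exact permutation p = 0.00866, limma adjusted p = 0.78), a 0.80-fold signal. Against control, ursolic acid differed by -0.14 (SE 0.11, exact permutation p = 0.182, limma adjusted p = 0.777) and tomatidine by 0.18 (SE 0.11, exact permutation p = 0.262, limma adjusted p = 0.695). The order of the means was therefore tomatidine, control, ursolic acid, and neither pair of neighbours in that order differed beyond the spread between mice.

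The call for Ppargc1a lay near the limma threshold. It was kept in 20 of 27 alternative analyses and was lost when certain single mice were left out. The difference was -0.22 without tomatidine mouse 3, -0.29 without tomatidine mouse 4 and -0.27 without ursolic acid mouse 6. Each of these fits missed the limma threshold narrowly, while the exact permutation p was 0.019, 0.019 and 0.0159. Without tomatidine mice 3 and 4 together the difference was -0.15 (exact permutation p = 0.0476) and was not near the limma threshold. With all mice, the same difference narrowly failed to pass in the methods' t-test and did not pass with the mouse number as a block. Without control mouse 1, ursolic acid differed from control by -0.21 (exact permutation p = 0.00952) and still did not pass in limma. Pdk4, the kinase that shuts off pyruvate dehydrogenase in fasting and a known target of the coactivator, was also high in tomatidine mice 3 and 4, though not in them alone. Its signal ran from 12.23 to 12.65 with a median of 12.47 under ursolic acid, was 13.28, 11.90, 13.72, 13.27 and 13.13 in tomatidine mice 1 to 5, and was 11.34, 12.62, 12.33, 12.52 and 12.22 in control mice 1 to 5. Tomatidine mice 1, 3, 4 and 5 lay above every other mouse for Pdk4, and control mouse 1, lowest among controls for Ppargc1a, held the lowest Pdk4 signal of all 16 mice.

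Some adipocyte markers passed in the same comparison, while of the macrophage markers 1 dim gene did. Of 15 measured adipocyte markers, 0 were higher and 4 were lower under ursolic acid than under tomatidine (Cidec, Thrsp, Adipoq and the dim Slc7a10), where 1.57% of all genes were lower. Against control, 6 were higher with tomatidine, including Adipoq at 0.48 (SE 0.18, limma adjusted p = 0.44), where 2.68% of all genes were higher, and 2 were higher with ursolic acid, Adig at 0.32 and the dim Cidea at 0.18, where 2.81% were. The log2 of their summed signal was 13.07 to 13.43 with ursolic acid, 13.27 to 13.61 with tomatidine and 13.20 to 13.53 in controls. Of 8 brown-fat markers 1 was not dim. Ucp1 and Prdm16, which define that cell type, stayed near the lowest signals in every mouse, at 7.90 to 8.21 and 7.92 to 7.98, while Cidea, which is on both lists, was higher by 0.18 with ursolic acid (limma adjusted p = 0.326) and by 0.23 with tomatidine (limma adjusted p = 0.203), and the dim Dio2 was lower with ursolic acid, at -0.07. Once group means were removed, Ppargc1a and the mean of the 7 adipocyte markers that were not dim had r = -0.07 over 16 mice. The mean of the 4 macrophage markers that were not dim ran from 8.74 to 9.46 with ursolic acid, from 8.75 to 9.91 with tomatidine and from 8.84 to 9.59 in controls, and tomatidine mice 4 and 3, highest for Ppargc1a, held its highest values, 9.91 and 9.80. Of 8 measured macrophage markers 1 was lower under ursolic acid than under tomatidine, the dim Cd163 at -0.13, and the median difference of the list was -0.17, against -0.03 for the adipocyte list and 0.00 over all genes. Within groups, Ppargc1a and the macrophage mean had r = 0.19. The parts of adipocyte and macrophage RNA in the Ppargc1a difference were not tested.

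Ppargc1b, the second coactivator of the family and an activator of the same receptors, had a different order of group means, ursolic acid, tomatidine, control. Its signal under ursolic acid had a lowest value of 8.81, a median of 9.07 and a highest value of 9.27. It was 9.08, 8.97, 8.82, 8.77 and 9.38 in tomatidine mice 1 to 5, and 8.89, 8.85, 9.01, 8.96 and 8.73 in control mice 1 to 5. Of the ursolic acid mice 4 of 6 lay above every control, as did 2 of 5 tomatidine mice, and the groups overlapped. The difference from control was 0.19 for ursolic acid (SE 0.10, 95% interval -0.03 to 0.41, exact permutation p = 0.0649, limma adjusted p = 0.624) and 0.12 for tomatidine (SE 0.11, exact permutation p = 0.397, limma adjusted p = 0.815). Tomatidine mice 3 and 4, high for Ppargc1a, were the lowest tomatidine mice for Ppargc1b.

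The estrogen-related receptors are orphan nuclear receptors through which PGC-1α switches on oxidative genes. Esrra, which encodes ERRα, gave 11.04, 11.23 and 11.33 as the lowest, median and highest signal under ursolic acid. It was 11.20, 11.21, 11.13, 10.91 and 11.06 in tomatidine mice 1 to 5, and 11.06, 11.31, 11.35, 11.03 and 10.84 in control mice 1 to 5. The controls spread most, from the lowest to the highest signal of all 16 mice, and both other groups lay inside that range. The difference from control was 0.10 with ursolic acid (95% interval -0.09 to 0.28, limma adjusted p = 0.82) and -0.02 with tomatidine (95% interval -0.21 to 0.17, limma adjusted p = 0.981). The Esrrg probe, for ERRγ, was dim at 7.95 to 8.02 in every mouse, so the array gave little measure of this receptor.

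Nrf1 and Gabpa encode the nuclear respiratory factors, which bind promoters of respiratory chain genes and of the mitochondrial transcription factors. Nrf1 averaged 8.53 ± 0.02 with ursolic acid (SD, n = 6), 8.53 ± 0.05 with tomatidine (SD, n = 5) and 8.51 ± 0.09 in controls (SD, n = 5), just above the dim range. Its difference from control was 0.01 with ursolic acid (95% interval -0.05 to 0.08, limma adjusted p = 0.941) and 0.02 with tomatidine (95% interval -0.06 to 0.09, limma adjusted p = 0.936). The intervals therefore held any Nrf1 difference to less than 0.10 on this scale in either direction. All 3 Gabpa probes were dim, and no mouse lay above 8.16 on any of them.

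**Figure D2:**
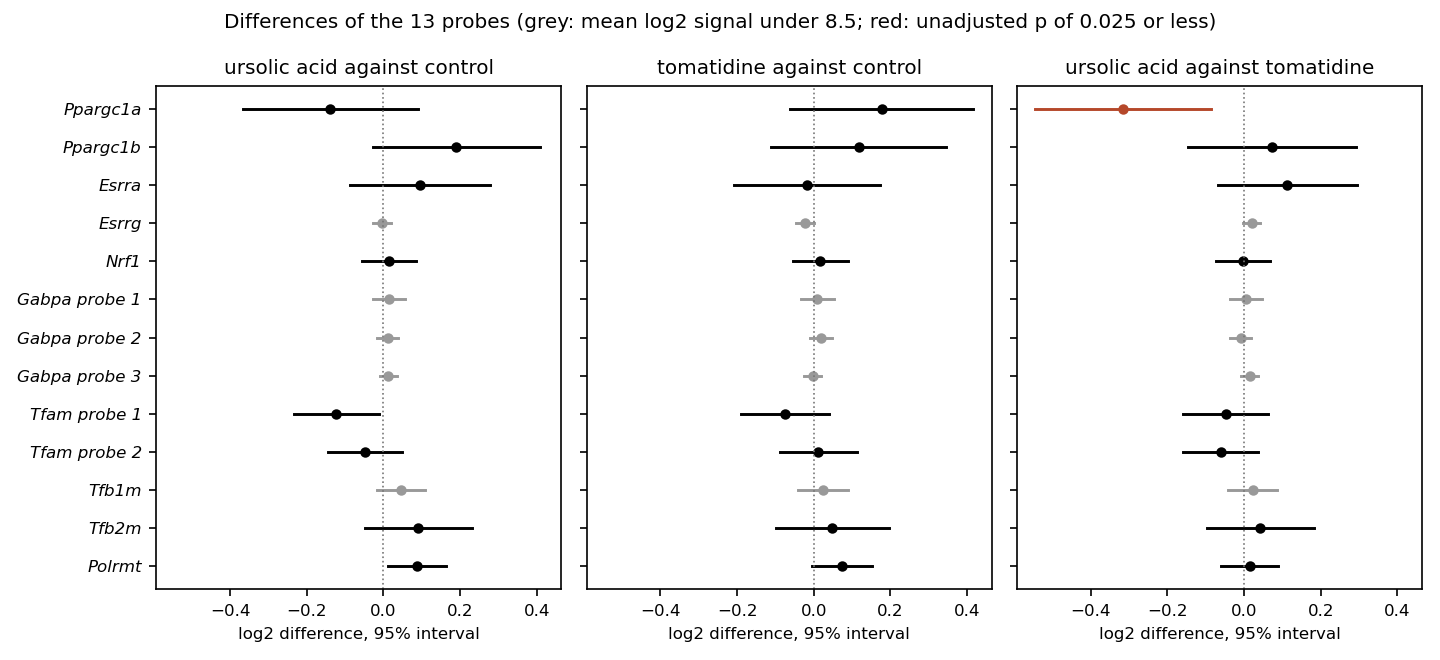
log2 difference (horizontal axis) with its 95% interval for each of the 13 probes, in a panel for each diet against control and a panel for ursolic acid against tomatidine, with dim probes in grey. Ppargc1a in the ursolic acid against tomatidine panel, at -0.32, is the single probe drawn in red for a p of 0.025 or less, while Tfam probe 1 and Polrmt have intervals that miss 0 in the panel of ursolic acid against control.

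The mitochondrial transcription machinery is encoded by Polrmt, the RNA polymerase, Tfb2m, which opens the promoter, Tfam, which packages and bends mitochondrial DNA, and Tfb1m, which methylates mitochondrial ribosomal RNA. Polrmt lay closest to the threshold against control. Its lowest, median and highest signals were 10.10, 10.21 and 10.28 under ursolic acid. They were 10.19, 10.16, 10.12, 10.28 and 10.20 in tomatidine mice 1 to 5, and 10.08, 10.13, 10.05, 10.18 and 10.14 in control mice 1 to 5. Of the ursolic acid mice 4 of 6 lay above every control, and 3 of 5 tomatidine mice did so. The difference from control was 0.09 with ursolic acid (SE 0.04, exact permutation p = 0.0519, limma adjusted p = 0.473) and 0.07 with tomatidine (SE 0.04, exact permutation p = 0.0714, limma adjusted p = 0.58).

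The Tfam probes varied little together from mouse to mouse. Probe 1 gave 9.08, 9.18 and 9.26 as the lowest, median and highest signal under ursolic acid, then 9.20, 9.25, 9.42, 9.10 and 9.14 in tomatidine mice 1 to 5, and 9.23, 9.30, 9.37, 9.33 and 9.25 in control mice 1 to 5. Under ursolic acid 3 of 6 mice lay below every control on this probe, a difference of -0.12 (SE 0.05, exact permutation p = 0.0303, limma adjusted p = 0.491). Probe 2 gave 9.04, 9.09 and 9.14 as the lowest, median and highest signal under ursolic acid, and all 6 of those mice lay within the control range of 8.99 to 9.29. Its difference was -0.05 (SE 0.05, exact permutation p = 0.346, limma adjusted p = 0.828). Once group means were removed, the probes of this gene had r = 0.16 over 16 mice, so the reading of Tfam depended on the probe.

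Tfb2m had signals of 10.15, 10.35 and 10.43 (lowest, median, highest) under ursolic acid, of 10.48, 10.28, 10.21, 10.06 and 10.41 in tomatidine mice 1 to 5, and of 10.25, 10.22, 10.31, 10.22 and 10.20 in control mice 1 to 5. The control mice lay closest together, with an SD of 0.05, against 0.11 with ursolic acid and 0.17 with tomatidine. The difference from control was 0.09 with ursolic acid (exact permutation p = 0.117, limma adjusted p = 0.755) and 0.05 with tomatidine (exact permutation p = 0.532, limma adjusted p = 0.898). The Tfb1m probe was dim in every mouse, at 8.08 to 8.26. Over the 5 dim probes of the set, differences from control ran from -0.02 to 0.05.

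Promoter windows from RefSeq (build GRCm38.p6), reaching from 250 bases before to 50 bases after a start, were at hand for 9 of the 10 genes, in 13 windows. They were searched on both strands for 5 motifs. These were sites of ERR, GABP and NRF1, described above, and the cAMP response element and the E-box, of other factors. The ETS core bound by GABP (CCGGAAG) was found in windows of 3 genes, Gabpa, Tfam and Polrmt, and in 8.86% of all 32851 windows of the same length. The NRF1 core (GCGCATGC) was found in windows of 3 genes, Esrra, Tfb2m and Polrmt, and in 2.71% of all windows. The core of the cAMP response element (TGACGT), through which CREB acts, was found for Ppargc1a alone and in 7.51% of all windows. The 1 window of Ppargc1a lay inside the annotated gene (chr5:51454249-52115853, minus strand), far from its upstream end, for which no window was at hand. The ERR site (AAGGTCA) and the E-box (CACGTG) were found in none of the 13, and in 4.72% and 7.15% of all windows. A match is a match of letters and not a measured site. The stretches just before the start are shown for the gene that passed between diets before adjustment only and for the pair nearest the threshold. Esrra is also shown, which among the members that were not dim had the highest r with the mean of the target genes. Motif letters are in capitals on the strand of the gene, so that a motif on the other strand appears as its reverse complement.
Ppargc1a, chr5:51567726-51567845, minus strand: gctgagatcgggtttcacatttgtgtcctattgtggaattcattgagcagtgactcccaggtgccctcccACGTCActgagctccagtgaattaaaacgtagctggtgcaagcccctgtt
Esrra, chr19:6921809-6921928, minus strand: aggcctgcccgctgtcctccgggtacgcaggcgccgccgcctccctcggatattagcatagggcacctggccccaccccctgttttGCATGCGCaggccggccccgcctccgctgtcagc
Tfam, chr10:71238045-71238164, minus strand: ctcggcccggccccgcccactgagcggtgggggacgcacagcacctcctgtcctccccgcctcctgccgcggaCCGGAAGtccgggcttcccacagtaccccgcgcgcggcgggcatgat
Polrmt, chr10:79746582-79746731, minus strand: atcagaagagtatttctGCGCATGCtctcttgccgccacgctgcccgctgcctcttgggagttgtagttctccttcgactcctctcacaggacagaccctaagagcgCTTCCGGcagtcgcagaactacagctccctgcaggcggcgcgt

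Among genes that the circuit is known to control, those that passed against control were all higher. Of 60 measured targets of PGC-1, ERR and the nuclear respiratory factors (of 68 listed, 1 probe per gene), 9 were higher and 0 lower with ursolic acid, where 2.81% of all genes were higher and 2.86% lower. With tomatidine 10 were higher and 0 lower, where 2.68% of all genes were higher and 3.38% lower. Of the 60 targets 52 were not dim, and probes that were not dim passed more often. Fitted alone, 10.3% of the 5949 probes averaging 8.5 or more passed with ursolic acid (302 higher and 311 lower). With tomatidine 11.1% of them passed (288 higher and 375 lower). The shares over all genes are therefore a low standard for this list. The median log2 difference of the list was 0.05 with ursolic acid and 0.07 with tomatidine, against 0.00 over all genes in both comparisons. Others lay below control without passing, such as Atp5c1, another ATP synthase subunit, at -0.09 with ursolic acid and -0.20 with tomatidine. None of the 60 passed after adjustment over all probes in either comparison, the smallest adjusted p being 0.229 with ursolic acid and 0.237 with tomatidine. Ckmt2 and Fndc5 had been named by the study from these same arrays and from qPCR on quadriceps of the same feeding experiment. In gene set enrichment on these same arrays, the study also reported sets for muscle contraction or mitochondrial bioenergetics as induced by both compounds. The list was chosen with earlier results of these data known. The array values of Ckmt2, Fndc5 and the other targets are therefore not independent evidence of the list's direction.

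With ursolic acid the 5 targets with the smallest p were Ckmt2, Atp5g1, Atp5g3, Fndc5 and Prdx3. Ckmt2, the creatine kinase of muscle mitochondria, ran from 14.34 to 14.54 with a median of 14.44 under ursolic acid, was 14.41, 14.30, 14.41, 14.30 and 14.39 in tomatidine mice 1 to 5, and was 14.02, 14.09, 14.41, 14.03 and 14.32 in control mice 1 to 5. Its difference from control was 0.27 with ursolic acid (SE 0.07, exact permutation p = 0.013, limma adjusted p = 0.229) and 0.19 with tomatidine (SE 0.07, exact permutation p = 0.103, limma adjusted p = 0.412). Atp5g1 and Atp5g3, which encode subunit c of ATP synthase, were higher by 0.16 and 0.10, and Prdx3, a peroxidase of the mitochondrial matrix, by 0.20. Fndc5, the precursor of the secreted peptide irisin, was higher by 0.40 with ursolic acid (SE 0.12, exact permutation p = 0.00866, limma adjusted p = 0.302) and by 0.43 with tomatidine (SE 0.12, exact permutation p = 0.0317, limma adjusted p = 0.266). Control mouse 1 held the lowest signal of all 16 mice for Ckmt2, Fndc5 and Atp5g1.

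With tomatidine the 5 smallest p values belonged to Atp5g1 (0.16), Fndc5, Idh3b (0.09), Pdk4 (0.86) and Ucp3 (0.40), given as log2 differences from control. The exact permutation p against control was 0.00794 for Idh3b, 0.0476 for Pdk4 and 0.0635 for Ucp3. Idh3b encodes a subunit of isocitrate dehydrogenase, and Ucp3 is the uncoupling protein of muscle, which like Pdk4 is known to be high in fasting. Between the diets, 0 targets were higher and 2 were lower under ursolic acid than under tomatidine, where 1.47% of all genes were higher and 1.57% lower. These were Ucp3 at -0.45 (SE 0.13, exact permutation p = 0.026, limma adjusted p = 0.764) and Idh3b at -0.07 (SE 0.03, exact permutation p = 0.0303, limma adjusted p = 0.78). Ucp3 ran from 8.70 to 9.12 with a median of 8.84 under ursolic acid, against 9.30, 8.83, 9.54, 9.70 and 9.15 in tomatidine mice 1 to 5. Mice 3 and 4, which were highest for Ppargc1a, were also highest here.

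**Figure D3:**
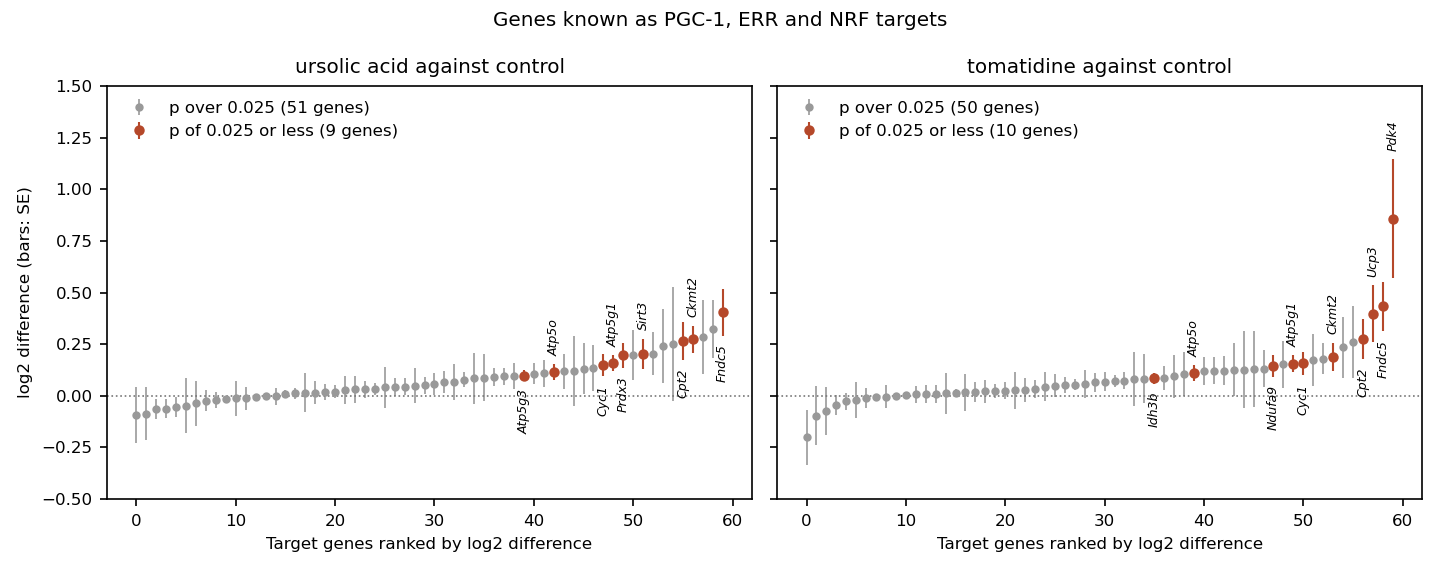
log2 difference from control (vertical axis, bars are SE) of 60 genes known as targets of PGC-1, ERR and the nuclear respiratory factors, ranked from lowest to highest along the horizontal axis, for ursolic acid on the left and tomatidine on the right. The 9 genes on the left and the 10 on the right at a p of 0.025 or less are red and named, and all lie above 0.

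Fibre-type markers moved with the target genes. The mean log2 signal of the 7 slow-fibre markers that were not dim ran from 11.46 to 12.14 with ursolic acid, from 10.60 to 11.79 with tomatidine and from 10.29 to 11.85 in controls. Tomatidine mouse 4 (10.60) and control mice 5 and 1 (10.59 and 10.29) lay below the other mice, and these 3 mice also had the lowest means over the 52 targets that were not dim, at 12.10, 12.07 and 12.03 against 12.13 or more elsewhere. Of 10 slow-fibre markers 1 was higher with ursolic acid, Atp2a2 at 0.58 (SE 0.21, limma adjusted p = 0.414), 1 was higher with tomatidine, Tpm3 at 0.11 (SE 0.04, limma adjusted p = 0.404), and 0 were lower with either. Over all genes 2.81% were higher with ursolic acid and 2.68% with tomatidine. Of 11 fast-fibre markers 0 were higher, 3 were lower with ursolic acid (Myh4 at -0.26, Mybpc2 at -0.14 and Tnni2 at -0.11), where 2.86% of all genes were lower, and 1 was lower with tomatidine (Mybpc2 at -0.11), where 3.38% were. Ckm was also lower with ursolic acid, at -0.10 (limma adjusted p = 0.414). With the slow-fibre mean entered in the fit as a covariate, 8 of 60 targets passed with ursolic acid, 12 of 60 with tomatidine and 5 of 60 between the diets, a fit added after the data had been seen. Of all probes, 6.51%, 6.66% and 3.11% passed in that fit. With no covariate and without control mouse 1 the counts were 5 of 60 for ursolic acid and 3 of 60 for tomatidine. Of all probes 4.34% and 4.24% passed there. For tomatidine the count was also 3 of 60 without tomatidine mouse 3, where 4.74% of all probes passed. The methods' t-test called 3 of 60 targets for tomatidine against control, where 4.01% of all probes passed. These tomatidine counts of 3 were near the shares over all probes.

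The genes that copy and express mitochondrial DNA formed another list, of which 44 of 48 were measured. With ursolic acid 5 were higher and 0 lower, where 2.81% of all genes were higher, a count that fell to 1 with the filter on dim probes or the intensity trend. With tomatidine 1 was higher and 0 lower, where 2.68% of all genes were higher, so that count was near the share over all genes. Tefm, the elongation factor of the mitochondrial RNA polymerase, passed in both, with signals of 9.75 to 9.94 and a median of 9.89 under ursolic acid, of 9.91, 9.81, 9.87, 9.77 and 9.87 in tomatidine mice 1 to 5, and of 9.78, 9.73, 9.75, 9.70 and 9.67 in control mice 1 to 5. Its difference was 0.15 with ursolic acid (SE 0.03, exact permutation p = 0.00866, limma adjusted p = 0.195) and 0.12 with tomatidine (SE 0.03, exact permutation p = 0.0159, limma adjusted p = 0.279). The others with ursolic acid were Mterf4 (0.10), a partner of a mitochondrial ribosomal RNA methyltransferase, Fastk (0.11) and Fastkd5 (0.09), of a family that handles mitochondrial RNA, and the dim Mterf1a (0.06), a transcription terminator. The list's median difference was -0.00 with ursolic acid and 0.00 with tomatidine. Ursolic acid against tomatidine gave 0 of 44, where 3.04% of all genes passed, and 3 of 44 when any probe of a gene could count.

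The coactivator's partners and upstream signals, 54 of 59 measured, moved both ways. With ursolic acid 4 were higher (Camk2d, Prkag1, Prkab1 and the dim Yy1) and 4 were lower (Mapk12, Rxrg, Camk2g and Prkaa2), where 2.81% of all genes were higher and 2.86% lower. Mapk12 encodes p38γ, a kinase known to be needed for the rise of PGC-1α with exercise. It ran from 10.86 to 11.13 with a median of 11.02 under ursolic acid, was 10.95, 10.94, 10.98, 11.10 and 10.88 in tomatidine mice 1 to 5, and was 11.26, 11.05, 11.18, 11.29 and 11.20 in control mice 1 to 5. The difference was -0.19 with ursolic acid (SE 0.05, exact permutation p = 0.013, limma adjusted p = 0.285) and -0.23 with tomatidine (SE 0.05, exact permutation p = 0.0159, limma adjusted p = 0.224).

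Other kinases of the same list were lower or higher by subunit or isoform. Camk2g, a calcium and calmodulin-dependent kinase, fell by 0.14 with ursolic acid (limma adjusted p = 0.367) and by 0.17 with tomatidine (limma adjusted p = 0.266), while its relative Camk2d was higher by 0.14 with ursolic acid (limma adjusted p = 0.335) and Camk2b fell by 0.25 with tomatidine (limma adjusted p = 0.412). Of the subunits of AMP-activated kinase, which senses low energy and phosphorylates PGC-1α, the catalytic Prkaa2 fell by 0.19 with ursolic acid (SE 0.07, limma adjusted p = 0.415), while the regulatory Prkag1 and Prkab1 were higher by 0.12 and 0.07. With tomatidine 1 gene of this list was higher, Prkab1 at 0.10, and 4 were lower, namely Mapk12, Camk2g, Camk2b and, at -0.08, Kat2b, an acetyltransferase, where 2.68% of all genes were higher and 3.38% lower. Between the diets, ursolic acid against tomatidine, 1 was higher (Crtc2, 0.07, dim) and 1 lower (Ncoa1, -0.11), near the 1.47% and 1.57% of all genes.

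Across mice, with each group's mean removed, the regulators did not follow the target genes alike. Esrra had r = 0.80 with the mean of the 52 targets that were not dim (Spearman's rho 0.84, n = 16 mice), and r = 0.75 without the 2 mice farthest from the median of Esrra. With group means left in, the values were r = 0.69 and rho 0.46, and r = 0.49 without the 2 farthest mice. Of those 52 genes 45 had a positive r with Esrra, with a median of 0.60. Over all other genes that were not dim the median was -0.00, and 49.81% had a positive r. Of the targets, Sdhb, a subunit of succinate dehydrogenase, was highest at 0.86 and Gpx1, a cytosolic peroxidase, lowest at -0.87. Esrra also had r = 0.77 with the slow-fibre mean, 0.82 with the mean of 2 Schwann cell markers, 0.64 with that of 8 endothelial markers, all 8 of them positive, and -0.67 with that of 4 macrophage markers. The receptor thus varied along with markers of several cell types, whose part in its relation to the targets was not tested. Ppargc1a had r = 0.12 with the target mean (rho 0.00, -0.23 without the 2 farthest mice), and 28 of the 52 targets had a positive r. Over all other genes that were not dim, 43.67% had a positive r with Ppargc1a. Pdk4 was its highest target, at 0.63 (0.39 without the 2 farthest mice). These are descriptions over mice that share group, array and tissue composition.

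**Figure D4:**
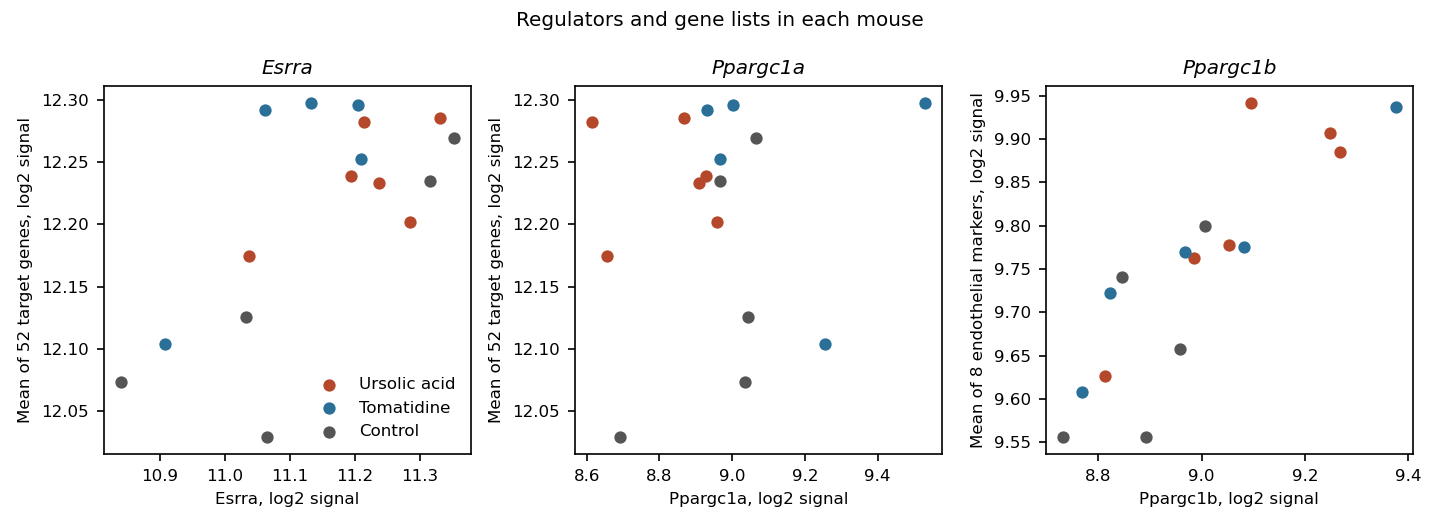
log2 signal per mouse of Esrra (left) and Ppargc1a (middle) against the mean of 52 target genes, and of Ppargc1b (right) against the mean of 8 endothelial markers, with ursolic acid in red, tomatidine in blue and control in grey. With group means removed, Esrra and the targets had r = 0.80, Ppargc1a and the targets r = 0.12, and Ppargc1b and the endothelial markers r = 0.83, and over the signals as plotted r was 0.69, 0.12 and 0.87.

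Ppargc1b varied with endothelial markers. Once group means were removed it had r = 0.83 with the mean of the 8 endothelial markers that were not dim (rho 0.81, 0.73 without the 2 farthest mice). All 8 had a positive r, as did 52.17% of all other genes that were not dim. Ppargc1b also had r = 0.70 with the mean of 2 erythroid markers, and Esrra, as given above, had a positive r with the same 8 endothelial markers. Of all 4498 genes compared, the nearest in pattern were Vwf (0.90) and Emcn (0.87), which are both endothelial, and Gas6 (0.83), a ligand of receptor kinases. Of 10 endothelial markers 2 were higher with ursolic acid against control, Emcn at 0.30 (SE 0.10, limma adjusted p = 0.359) and Egfl7 at 0.21 (SE 0.08, limma adjusted p = 0.415), and 0 were lower, where 2.81% of all genes were higher and 2.86% lower. The log2 of their summed signal was 12.98 to 13.29 with ursolic acid, 12.98 to 13.28 with tomatidine and 12.89 to 13.14 in controls. The parts of endothelial and erythroid RNA in the Ppargc1b values were not tested. Ppargc1b had r = 0.54 with the target mean.

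For the other regulators the nearest genes by the same measure had no common theme that was tested. Esrra was nearest to Myh1 (0.91), a fast myosin heavy chain of the IIx fibre, Esrrb (0.91), which encodes another receptor of its family, and Kiz (0.91). Ppargc1a was nearest to Ext1 (0.90), Hoxa5 (0.81), Midn (0.80), Itpkc (0.80) and Col4a1 (0.77), and farthest from Supt4a at -0.82. Nrf1 was nearest to Sptb (0.88), Ndufs7 (0.84) and Trmt1 (0.80), and Tfam probe 1 to Actr3 (0.82), Aars (0.80) and Nckap1 (0.78). Tfb2m was nearest to Asb10 (0.88), Smarca2 (0.80) and Meis1 (0.79), and Polrmt to Suz12 (0.73), P4hb (0.70) and Nup93 (0.70).

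Among the regulators themselves the values of r within groups ran both ways. Tfb2m had r = 0.59 with Tfam probe 2, 0.50 with Ppargc1b and -0.55 with Ppargc1a. The coactivators had r = -0.39 with each other. Polrmt and Tfam probe 1 had r = -0.58. Of the 52 targets, the number with a positive r was 48 for Ppargc1b, 46 for Tfam probe 2, 45 for Esrra and 43 for Tfb2m. It was 38 for Tfam probe 1, 35 for Nrf1, 28 for Ppargc1a and 11 for Polrmt. Of all other genes that were not dim, 43.67% (Ppargc1a) to 55.17% (Nrf1) had a positive r with these probes.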

How the data were processed

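Quadriceps RNA from 16 mice was hybridised to 1-colour Illumina Mouse Ref-8 v2 BeadChips. The authors read the arrays with BeadStudio and deposited log2 signals on 1 common scale. How background was corrected and signals normalized is not given in the sources used here. The values were used unchanged. Of 25697 probes, 23978 had 1 gene symbol in the platform annotation, 1719 had none and 0 had several. Each mouse is a replicate, and their number limits the precision. No slide, scan date or detection call was used.

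All probes were fitted with limma 3.58.1 in R 4.3.3, giving each of the 3 groups its own mean, and p-values were adjusted by Benjamini-Hochberg over all 25697 probes. The words higher, lower and passed refer to an unadjusted p of 0.025 or less, which with an adjusted p of 0.1 or less is the threshold in the methods of the study. Single members, and Ckmt2, Fndc5, Tefm, Mapk12, Ucp3, Idh3b and Pdk4, were also tested with exact 2-sided permutation tests of the difference of means. The fit was tested on simulated data. In lists the brightest probe stood for a gene. Named from the pathway lists were the genes that passed, at most 5 with the smallest p per direction and comparison, and by likeness the genes with the highest r after removal of group means (Python 3.11.15). Atp5c1, Sdhb, Gpx1, the cell type markers and the genes set beside a mouse that stood apart were named after their values were seen. The members and lists were chosen with earlier results of these data known. Alternatives were the methods' t-test with equal and with unequal variances, only the 2 groups compared, median centring, quantile normalization, a filter on dim probes, an intensity trend with robust estimates, array weights, the mouse number as a block, any probe of a gene, each mouse left out, and tomatidine mice 3 and 4 left out. The alternatives of the list counts and the slow-fibre covariate were chosen after seeing the data.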

Additional observations from a re-analysis of the deposited data

Results flagged for a closer look

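Ppargc1a in control mouse 1, at a log2 signal of 8.69, lay far below the other control mice, which ran from 8.97 to 9.06. Its gap took 0.74 of the group's range, above Dixon's limit of 0.71 for 5 samples, and it was the 1 flag among 39 probe and group pairs, where chance flags about 1 in 20. Without that mouse, ursolic acid differed from control by -0.21 (exact permutation p = 0.00952, not past the limma threshold) and tomatidine by 0.11 (exact permutation p = 0.524).

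Ppargc1a passed between the compounds before adjustment only, at -0.32 for ursolic acid minus tomatidine (exact permutation p = 0.00866, limma adjusted p = 0.78), while neither compound differed from control beyond the spread between mice. Without tomatidine mice 3 and 4 the difference was -0.15 (exact permutation p = 0.0476).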

How the results depend on the processing

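Of 1041 single-probe values under the alternatives, 984 kept direction and call, 7 lost the call, 17 gained one and 33 turned in sign. The 7 lost calls were all of Ppargc1a for ursolic acid against tomatidine, at -0.27 under the replicate block, -0.15 without tomatidine mice 3 and 4, -0.22, -0.29 and -0.27 without tomatidine mouse 3, tomatidine mouse 4 or ursolic acid mouse 6, and -0.32 in the t-tests with equal and unequal variances. Over all mice left out in turn it ran from -0.37 to -0.22. Tfam probe 1 and Polrmt, ursolic acid against control, passed in 7 of 27 alternatives each. When 1 mouse was left out, values that turned in sign ran, for tomatidine against control, from -0.0877 to 0.0404 for Esrra, -0.011 to 0.044 for Nrf1, -0.0261 to 0.0479 for Tfam probe 2 and -0.0058 to 0.0002 for Gabpa probe 3, for ursolic acid against control, from -0.0106 to 0.0029 for Esrrg and -0.0136 to 0.0413 for Nrf1, and for ursolic acid against tomatidine, from -0.0153 to 0.0101 for Nrf1, -0.004 to 0.0219 for Gabpa probe 1, -0.0776 to 0.0018 for Tfam probe 1, -0.0139 to 0.0912 for Tfb2m and -0.0033 to 0.0377 for Polrmt. Without tomatidine mice 3 and 4 the sign turned for Ppargc1b (-0.0648), Tfb2m (-0.059) and Gabpa probe 2 (0.0009) in ursolic acid against tomatidine and for Esrra (0.0377) and Gabpa probe 3 (0.0006) in tomatidine against control. With the slow-fibre covariate it turned for Esrra (-0.0276), Esrrg (0.0001) and Nrf1 (-0.0041) in ursolic acid against control, Tfam probe 2 (-0.0066) in tomatidine against control and Gabpa probe 1 (-0.0011) in ursolic acid against tomatidine. The cause was not tested.

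The count of the 13 probes for ursolic acid against control was 1 with either t-test, with only the 2 groups, with array weights and with the slow-fibre covariate, 2 without tomatidine mice 3 and 4, and 0 to 2 with 1 mouse left out. For tomatidine against control it was 0 to 1 with 1 mouse left out. For ursolic acid against tomatidine it was 0 with either t-test, under the replicate block and without tomatidine mice 3 and 4, and 0 to 1 with 1 mouse left out.

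Target genes called for tomatidine against control numbered 3 with the methods' t-test, 2 with unequal variances, 4 with only the 2 groups, 6 under the replicate block and 3 to 15 with 1 mouse left out, and for ursolic acid against control 5 to 12 with 1 mouse left out. Of all probes, 4.01% passed for tomatidine against control in the methods' t-test, 3.39% with unequal variances, 4.62% with only the 2 groups and 5.4% under the replicate block. For ursolic acid against tomatidine the target genes called numbered 4 with any probe, 1 with the intensity trend, the filter on dim probes, the methods' t-test or no tomatidine mice 3 and 4, 5 with the slow-fibre covariate, 0 with unequal variances and 1 to 3 with 1 mouse left out. Of the genes for mitochondrial DNA, ursolic acid against control gave 1 with the intensity trend or the filter, 3 with the slow-fibre covariate and 2 to 6 with 1 mouse left out. Tomatidine against control gave 3 with any probe or without tomatidine mice 3 and 4, 2 with only the 2 groups or either t-test and 1 to 4 with 1 mouse left out, and ursolic acid against tomatidine gave 3 with any probe and 0 to 1 with 1 mouse left out. Of the partners, tomatidine against control gave 8 with the intensity trend, 3 with either t-test and 4 to 10 with 1 mouse left out, ursolic acid against control gave 5 to 10 with 1 mouse left out, and ursolic acid against tomatidine gave 1 with the filter, the replicate block, the slow-fibre covariate, unequal variances or no tomatidine mice 3 and 4, and 1 to 3 with 1 mouse left out.

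Correlations of deviations between mice of the same number were over 0.1 in 0 of 5 pairs for ursolic acid against control (0 of 5 mice correlating best with their own number), 1 of 5 for tomatidine against control (0 of 5) and 4 of 5 for ursolic acid against tomatidine (3 of 5). As not every pair was over 0.1 in any comparison, the numbers were not taken to pair the mice, though a partial link between the diets is not settled. The replicate block changed no other call of a probe. Dim probes limit the values of Esrrg, Gabpa and Tfb1m.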
